A study of Mus musculus with 2 samples.

Results

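The proteins of the mitochondrial ribosome were followed in RNA of mouse liver as 78 protein-coding genes whose symbol in GENCODE M21 is Mrpl or Mrps with a number and at most 1 letter, out of 55421 genes listed. Of these, 49 are Mrpl genes, named for the large subunit, and 29 are Mrps genes, named for the small subunit. They lie on 17 chromosomes. The data are 2 libraries of total liver RNA, both labelled with a time of 8 weeks. The first is of Rcrin flox mice, called WT, which carry floxed alleles of Rcrin, and the other is of Rcrin conditional knockout mice. The Cre driver, the cell type that lost Rcrin and the number of mice in each library are not given in the sources used here. With 1 library per genotype there is no measure of the spread between mice, so no test was made and every difference is between these 2 libraries.

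The mitochondrial ribosome, or mitoribosome, sits in the mitochondrial matrix and translates the few messenger RNAs of mitochondrial DNA, whose products are core subunits of the respiratory chain. Its ribosomal RNAs come from mitochondrial DNA, while its proteins are encoded in the nucleus, made in the cytosol and imported. Some descend from the proteins of bacterial ribosomes, and others are particular to mitochondria. Hepatocytes hold many mitochondria and depend on them for fatty acid oxidation, the urea cycle and the supply of energy for glucose synthesis.

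Most genes of the mitoribosome stood slightly higher in the knockout library, and a few stood far apart from the rest. Together the members held 204746 counts (WT) and 248365 counts (knockout), or 0.314% and 0.391% of all counts. After scaling, the sum was 1.29-fold higher in the knockout library (log2 ratio 0.36, exact 95% interval 0.36 to 0.37, which covers counting error only). Of the 77 members with a mean of at least 50 counts, 56 (72.7%) had a log2 ratio above 0, beside 49.2% of the 12064 genes compared. The median log2 ratio of the members was 0.34, beside -0.01 for all genes compared. A limit of 2-fold was passed by 6 members (7.79%) in the higher direction, beside 8.45% of all genes, and by 3 (3.90%) in the lower direction, beside 8.61%. So the share of members past 2-fold was near the background for higher genes and below it for lower genes, and no test of either was made. In bulk liver RNA, fewer cells of a type and less RNA per cell cannot be told apart.

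**Figure D1:**
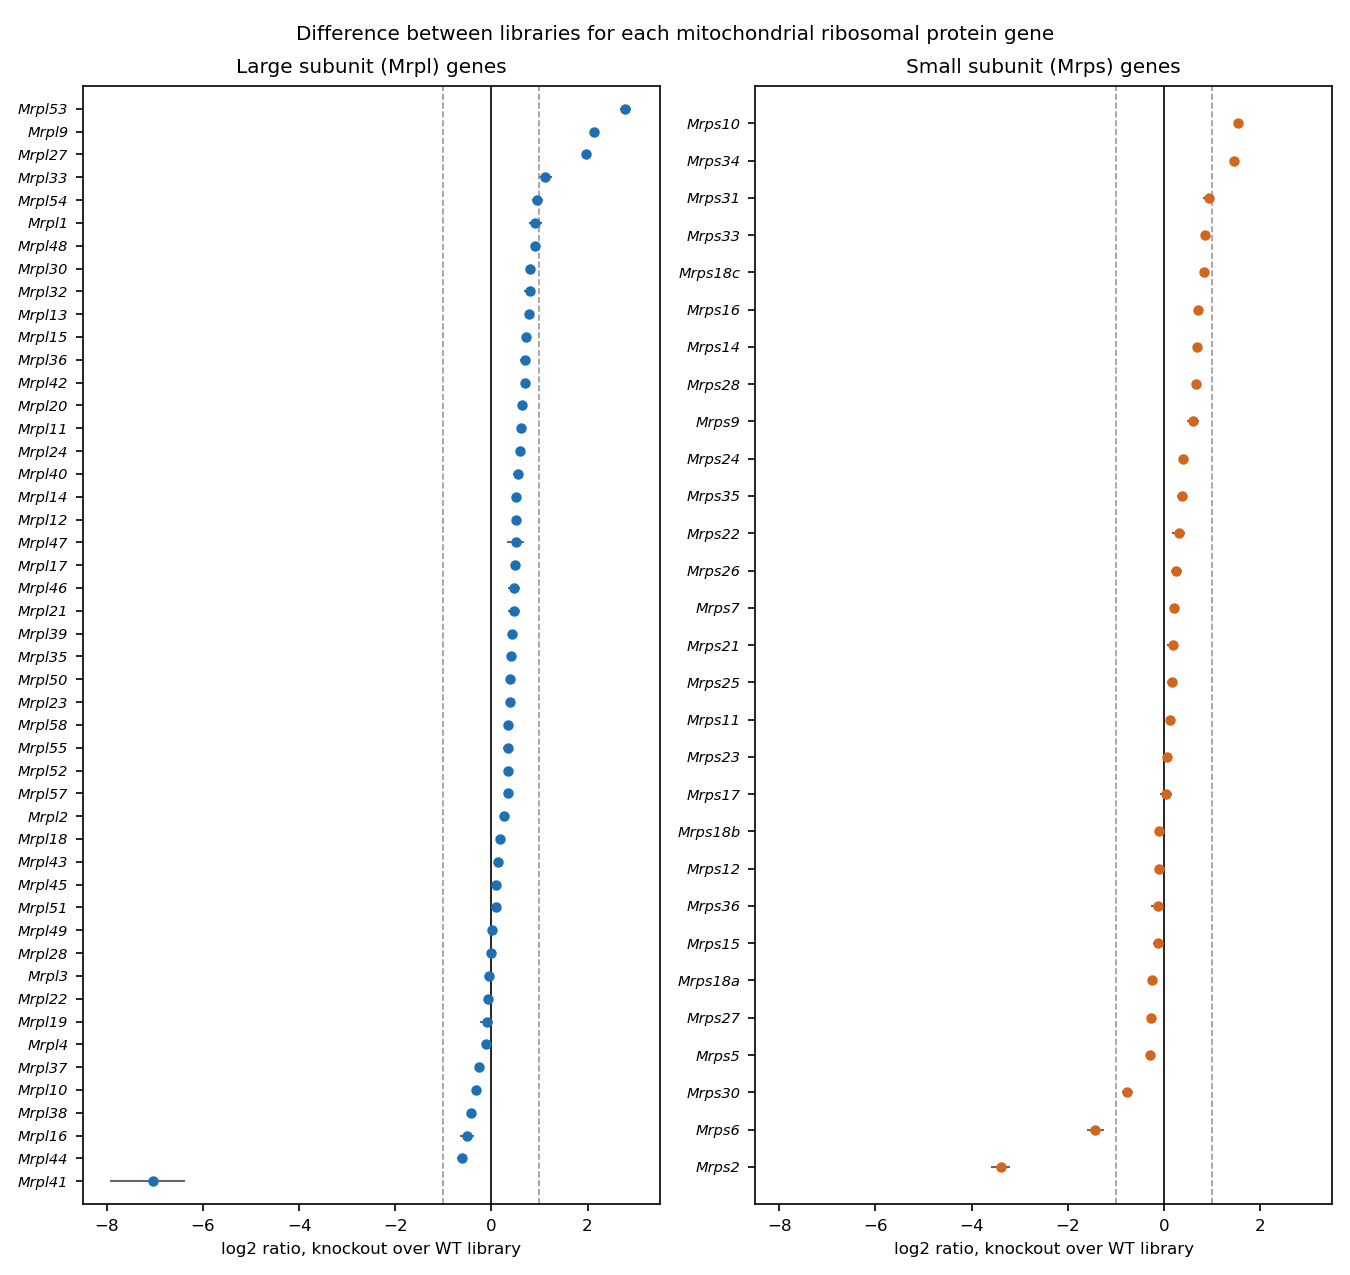
Each point is the log2 ratio of the knockout over the WT library for 1 gene, with its exact 95% counting interval as a bar. The solid line marks equal levels and the dashed lines mark 2-fold. Most genes sit between 0 and 1, with Mrpl41 at -7.04 and Mrps2 at -3.39 far below and Mrpl53 at 2.79 highest.

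The genes of the large subunit stood higher by more than those of the small subunit. The 48 Mrpl genes compared had a median log2 ratio of 0.42 (middle 50% from 0.07 to 0.69), with 37 above 0, 4 higher by 2-fold and 1 lower. The 29 Mrps genes had a median of 0.19 (middle 50% from -0.12 to 0.67), with 19 above 0, 2 higher by 2-fold and 2 lower. The summed counts gave 0.41 for Mrpl genes and 0.27 for Mrps genes. The ranges of the middle 50% overlapped almost wholly, and the difference was not tested, since genes are not replicates. The products of Mrps30 and Mrps18a sit in the large subunit despite their names, and the product of Mrps36 belongs to an oxoglutarate dehydrogenase complex. With these moved and left out, the medians were 0.40 over 50 large-subunit genes and 0.24 over 26 small-subunit genes.

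Grouped by origin, proteins with a bacterial homolog in the large subunit had the highest median. It was 0.51 over 29 genes, with 22 above 0, 3 higher by 2-fold and 0 lower. Large-subunit proteins particular to mitochondria had a median of 0.34 over 21 genes, with 15 above 0. In the small subunit the medians were 0.20 over 16 genes with bacterial homologs and 0.28 over 10 without. With a trend with GC content removed this order turned round, to 0.34 and 0.21, while in the large subunit the medians were 0.50 and 0.28. By place in the large subunit, 6 genes of the stalks, which contact translation factors and tRNA, had a median of 0.77. They include Mrpl53 (2.79), whose share of reads is uncertain, as given below. The 8 genes of the central protuberance had 0.41 and the 7 genes at the exit tunnel had 0.39. With the GC trend removed the medians by place were 0.68, 0.54 and 0.23. Each of these groups held members on both sides of 0.

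The 9 members past 2-fold are described first, starting with the 3 lower ones. Mrpl41 (ENSMUSG00000036850, GRCm38 chromosome 2 from 24974117 to 24975098), a protein particular to the mitochondrial large subunit, had 2169 counts in WT and 15 in the knockout. In CPM, counts scaled to a library of 1000000, this is 32.7 and 0.240, a log2 ratio of -7.04 (interval -7.93 to -6.37). Only 76 of the 12064 genes compared had a lower ratio. Its place among members in level per length went from 31 in WT to 77 in the knockout, above Mrpl34 alone. The gene has 2 exons, and 36.0% of all compared genes with 2 exons were past 2-fold. The compared genes before and after Mrpl41 on the chromosome, Dph7 (log2 ratio -0.27) and Pnpla7 (-0.16), lay near 0.

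Mrps2 (ENSMUSG00000035772, chromosome 2 from 28468066 to 28471178), homolog of a bacterial protein of the small subunit, had 2605 counts in WT and 233 in the knockout. Its level was 39.3 and 3.73 CPM, 10.5-fold lower in the knockout library (log2 ratio -3.39, interval -3.60 to -3.20). Of all genes compared, 144 had a lower ratio. The gene has 4 exons and shares no exon bases with another annotated gene. The compared genes before and after Mrps2 on the chromosome were Olfm1 (log2 ratio -0.85) and Ralgds (-0.49), both also lower but within 2-fold. Among the members compared, those nearest to Mrps2 in ratio were Mrps6 above and Mrpl41 below, each well apart from it.

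Mrps6 (ENSMUSG00000039680, chromosome 16 from 92058270 to 92112227), also of the small subunit and with a bacterial homolog, had 1016 and 357 counts, or 15.3 and 5.71 CPM (log2 ratio -1.42, interval -1.60 to -1.25). It shares exon bases on the same strand with Slc5a3, an inositol transporter gene with 140 and 118 counts, and with Gm49711, listed at 0 in both libraries. With their counts added the log2 ratio was -1.20, still past 2-fold. The next lowest Mrps gene was Mrps30 at -0.76.

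Among the 6 higher members, Mrpl53 led. Mrpl53 (ENSMUSG00000030037, chromosome 6 from 83109040 to 83109939) codes for a protein near the stalk of the large subunit. It had 690 counts in WT and 4500 in the knockout, or 10.4 and 72.0 CPM (log2 ratio 2.79, interval 2.67 to 2.91). However, 88.0% of its exon bases also belong to Gm42688, a protein-coding gene model on the same strand. Gm42688 had 2314 WT counts and was listed at 0 in the knockout library. Summed over Mrpl53, Gm42688 and the antisense gene Ccdc142os, the counts were 3011 and 4532, a log2 ratio of 0.68 (interval 0.61 to 0.74). So the 3 overlapping genes together stood higher in the knockout library by less than 2-fold, and the split of reads between the overlapping genes is uncertain. The next compared gene on the chromosome, Mogs, a glucosidase of the endoplasmic reticulum, had 4225 and 743 counts (-2.42).

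Mrpl9 (ENSMUSG00000028140, chromosome 3 from 94443318 to 94451130) and Mrpl27 (ENSMUSG00000024414, chromosome 11 from 94653767 to 94660089), both with bacterial homologs in the large subunit, came next. Mrpl9 had 1187 and 4930 counts, or 17.9 and 78.9 CPM (log2 ratio 2.14, interval 2.05 to 2.23). Mrpl27 had 1286 and 4749 counts, or 19.4 and 76.0 CPM (log2 ratio 1.97, interval 1.88 to 2.06). The genes that share exon bases with them on the opposite strand, Oaz3 (11 and 9 counts) and Eme1 (22 and 0 counts), held few counts. With these added the log2 ratios were 2.13 and 1.95. Per length, Mrpl27 went from place 39 among the 78 members to place 6, and Mrpl9 from place 67 to place 42.

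In the small subunit, Mrps10 and Mrps34 stood highest. Mrps10 (ENSMUSG00000034729, chromosome 17 from 47368887 to 47381417), with a bacterial homolog, had 1970 and 5449 counts, or 29.7 and 87.2 CPM (log2 ratio 1.55, interval 1.48 to 1.63). It has 7 exons and shares no exon bases with another gene, alone among the 6 higher members. Mrps34 (ENSMUSG00000038880, chromosome 17 from 24895116 to 24897502), particular to mitochondria, had 2121 and 5493 counts (log2 ratio 1.46, interval 1.39 to 1.53). Of its exon bases, 63.4% are shared with Mapk8ip3 on the opposite strand and 37.0% with Nme3 on the same strand. The log2 ratio of the 3 genes together was 1.01. Mrpl33 (ENSMUSG00000106918), a small protein of the large subunit, had 553 and 1125 counts, and its log2 ratio of 1.11 has an interval from 0.96 to 1.26 that reaches below 2-fold.

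**Figure D2:**
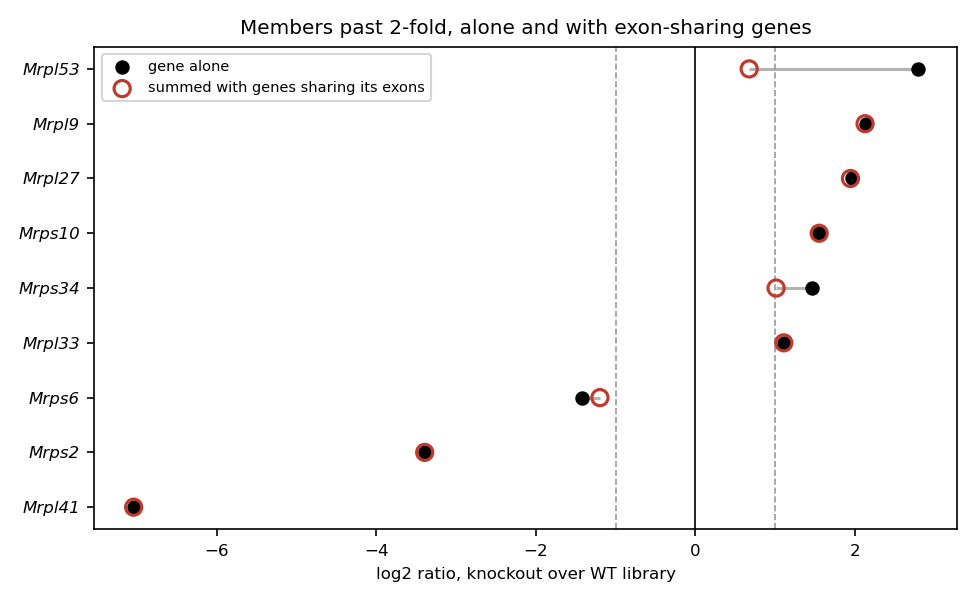
Each filled point is the log2 ratio of 1 of the 9 members past 2-fold, and the open circle is the ratio after the counts of every gene that shares exon bases with it were added. Mrpl53 moved from 2.79 to 0.68, Mrps34 from 1.46 to 1.01 and Mrps6 from -1.42 to -1.20, while the others kept nearly the same place.

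Promoter windows are shown for the 2 lowest and 3 highest members and for the most abundant member, to set these genes' sequence beside their values. Of the 78 members, 69 matched a promoter in the RefSeq table for GRCm38.p6, and the 250 bases before each RefSeq start were searched on both strands. The letters were GCGCA and GCGC with any 1 base between them for NRF1, CCGGAAG for the ETS factors (GABP among them), AAGATGGC for YY1 and CACGTG for the E-box of MYC. NRF1 and GABP are known activators of nuclear genes for mitochondria. The 100 bases before the RefSeq start of these 6 genes follow, 5′ to 3′, with matches to the first 3 motifs in capitals.
Mrpl12, chr11:120484537-120484636, plus strand: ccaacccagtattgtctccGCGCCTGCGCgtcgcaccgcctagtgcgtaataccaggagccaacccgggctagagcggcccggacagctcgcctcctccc
Mrpl9, chr3:94443236-94443335, plus strand: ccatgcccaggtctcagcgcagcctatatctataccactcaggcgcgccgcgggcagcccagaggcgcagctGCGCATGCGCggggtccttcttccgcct
Mrpl27, chr11:94653691-94653790, plus strand: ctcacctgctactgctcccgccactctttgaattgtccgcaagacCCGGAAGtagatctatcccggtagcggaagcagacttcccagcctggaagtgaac
Mrpl53, chr6:83109008-83109107, plus strand: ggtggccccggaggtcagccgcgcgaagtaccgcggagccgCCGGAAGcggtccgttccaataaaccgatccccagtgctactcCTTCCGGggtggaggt
Mrps2, chr2:28467966-28468065, plus strand: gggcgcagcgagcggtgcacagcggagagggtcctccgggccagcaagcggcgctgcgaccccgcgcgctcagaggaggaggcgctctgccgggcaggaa
Mrpl41, chr2:24975099-24975198, minus strand: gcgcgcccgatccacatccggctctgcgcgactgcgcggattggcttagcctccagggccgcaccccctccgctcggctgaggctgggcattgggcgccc

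The NRF1 letters stood in the windows of 10 of 69 members (14.5%), beside 4.23% of 27025 genes with a window and 9.31% of those that were compared here. The ETS letters stood in 18 members (26.1%), beside 7.83% of all and 15.5% of compared genes. The YY1 letters stood in 4 members (5.80%, beside 1.83% and 2.43%) and the E-box in 5 (7.25%, beside 6.86% and 9.98%). Mrpl12 and Mrpl9 hold an NRF1 match, Mrpl27 holds an ETS match and Mrpl53 holds a pair of them on opposite strands. The windows of Mrps2 and Mrpl41 have none of these letters. Of the 8 members past 2-fold with a window, 3 hold a match to the first 3 motifs and 5 hold none. In 39 of the 69 members none of the first 3 motifs was found, a share near that of the 8. The share of all genes with none of the 3 was not computed. The median log2 ratio was 0.46 for the 10 members with the NRF1 letters and 0.32 for the 58 compared members without them. It was 0.31 for 17 with the ETS letters and 0.39 for 51 without. A match is a run of letters and not a shown binding site.

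The factors that act on such genes were described from a list of 11 genes. Of 10 compared, 3 had a log2 ratio above 0, 0 were higher by 2-fold and 2 were lower. Gabpb2, a partner subunit of GABP, had 525 and 38 counts (log2 ratio -3.69), and the coactivator Ppargc1a had 130 and 58 counts (-1.07). Sp1 (0.53) and Yy1 (0.26) were the highest.

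Members not past 2-fold lie between -1 and 1 by definition, so that range is no finding about them. Of the 12064 genes compared, 10006 lay between -1 and 1, and of the 77 members compared, 68 did. Of these 68 members, 23 were between 0.5 and 1, 3 between -1 and -0.5, and 42 within 0.5 of 0. The counting interval lay wholly above 0 for 54 members, wholly below 0 for 16 and held 0 for 7. The same count was not made over all genes compared, and such intervals narrow with depth. So these numbers do not set the members apart. Just under 2-fold stood Mrpl54 (1002 and 1827 counts, log2 ratio 0.95), Mrps31 (921 and 1656 counts, 0.93) and the stalk protein gene Mrpl1 (726 and 1293 counts, 0.92). Mrpl48 (1638 and 2915 counts, 0.92), Mrps33 (0.87) and Mrps18c (0.85) followed. On the lower side were Mrps30 (1627 and 908 counts, -0.76), Mrpl44 (1962 and 1216 counts, -0.60), whose protein lies near the exit tunnel, and Mrpl16 (914 and 605 counts, -0.51). Mrpl38 (-0.42), Mrpl10 (-0.33), Mrpl37 (-0.26), Mrps5 (-0.29) and Mrps27 (-0.26) were lower by less. Some of these share exon bases with another gene. With the other gene's counts added, Mrpl48 with Rab6a was at 0.56 and Mrpl44 with Wdfy1 at -0.25, while the rest named here moved little. Mrps36 had 851 and 739 counts, and its interval of -0.26 to 0.03 held 0.

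The paralogs of the Mrps18 family went apart. Mrps18a had 3478 and 2777 counts (log2 ratio -0.24) and Mrps18b 4175 and 3665 (-0.10), while Mrps18c had 1264 and 2141 (0.85). Mrps18c shares 23.2% of its exon bases with Gm43511, which held 1 count in each library. Mrpl34 was the single member under 50 mean counts, with 10 WT counts and 0 knockout counts. A count of 0 allows up to 3 counts, so no fold is given. The next members above the limit, Mrpl47 (450 and 603 counts) and Mrps6, lay far from it.

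**Figure D3:**
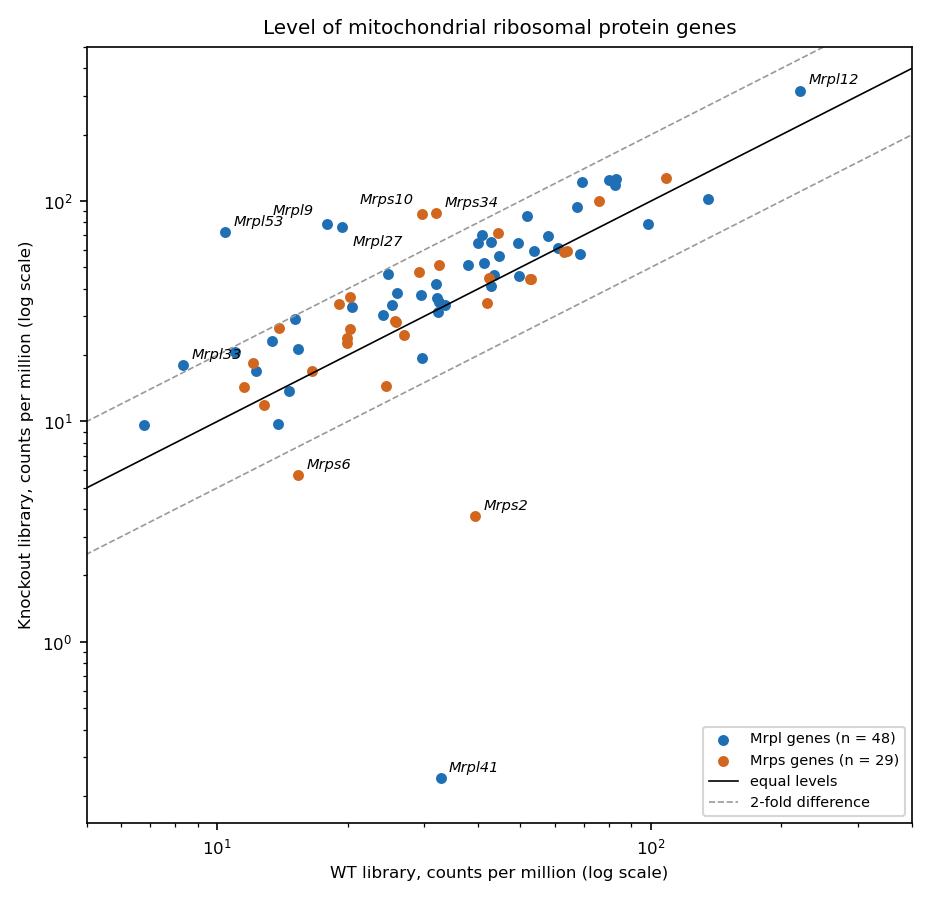
Each point is 1 gene, with its WT CPM on the horizontal and its knockout CPM on the vertical log axis. Most genes lie just above the line of equal levels, Mrpl12 is the most abundant in both libraries, and Mrpl41 and Mrps2 lie far below the line.

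Compared per kilobase of transcript, Mrpl12, Mrpl14 and Mrpl20 had the highest levels in both libraries. Mrpl12, which forms the stalk that recruits translation factors, stood highest at 212 (WT) and 304 (knockout) CPM per kilobase. Mrpl14 (155 and 223), Mrpl20 (149 and 233) and Mrpl38 (142 and 107) followed in the WT library, and Mrpl30 had 108 and 189. Among Mrps genes in the WT library Mrps12 (109 and 101) and Mrps24 (108 and 143) led, followed by Mrps7 (85.7 and 99.9), Mrps18b (81.5 and 75.9) and Mrps18a (69.7 and 59.1). In the knockout library Mrps34 (95.8), Mrps14 (91.5) and Mrps10 (85.8) stood above Mrps18b. Mrpl38 was lower in the knockout library (log2 ratio -0.42), and Mrps12 had a log2 ratio of -0.10 that became 0.12 with the GC trend removed. Across the 77 members Spearman's rho between the WT and knockout levels per kilobase was 0.827, a description over genes measured in the same libraries.

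Exon number, GC content and overlap were set beside the ratios. With 5 or more exons, 4 of 46 members were past 2-fold, all higher (8.70%, beside 14.0% of all such genes). With 3 or 4 exons, 4 of 28 were past 2-fold (14.3%, beside 24.0%), and with 2 exons 1 of 3. The medians of the 3 classes were 0.36, 0.38 and 0.34. The 25 members with a transcript GC content from 40.6% to 48.8% had a median log2 ratio of 0.61. The 26 with 48.8% to 53.7% had 0.26, and the 26 with 53.8% to 60.8% had 0.26. Spearman's rho between GC content and log2 ratio was -0.22 across the members and -0.33 across 12059 genes. With the GC trend of all genes removed, the medians were 0.48 for Mrpl and 0.24 for Mrps genes. Of the 78 members, 33 share exon bases with another gene. Their median was 0.34, and that of the 44 compared members without overlap was 0.36. Among those with overlap were 5 of the 6 members higher by 2-fold, and the share of all genes with overlap was not computed. With the counts of exon-sharing genes added, Mrpl53 alone of the 5 came within 2-fold (0.68).

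A further 5 proteins of the mitoribosome carry other names. Chchd1 had 1608 and 3095 counts (log2 ratio 1.03), Aurkaip1 6679 and 11291 (0.84), and Dap3 2887 and 3524 (0.37). Ptcd3 had 954 and 1009 counts (0.17) and Gadd45gip1 4407 and 4454 (0.10). Gadd45gip1 belongs to the large subunit and the other 4 to the small one. With the 4 added to the 29 Mrps genes the median was 0.22, and with Gadd45gip1 added to the Mrpl genes it was 0.41.

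Genes that build and serve the mitoribosome had medians nearer 0 than the Mrpl genes. Of these lists, only the translation factors had a median farther from 0 than the Mrps genes (0.19). With the GC trend removed this order turned round, to 0.08 for the translation factors and 0.24 for the Mrps genes. Assembly factors and enzymes that modify its RNA had a median of 0.09 over 30 genes, with 17 above 0, 3 higher by 2-fold and 0 lower. The 3 were the methyltransferases Mrm2 (221 and 984 counts, log2 ratio 2.24), Mettl15 (102 and 338 counts, 1.81) and Mrm3 (412 and 914 counts, 1.23). Mrm1 (-0.76) and the helicase Ddx28 (-0.75) were the lowest. Translation factors had a median of 0.26 over 18 genes, with 2 higher by 2-fold and 1 lower. Mtif3, which acts in initiation, had 827 and 1585 counts (1.02), and Mtrf1, of the release factor family, 141 and 270 (1.02). Pdf, which removes the formyl group from new proteins, had 1316 and 604 counts (-1.04), and Taco1 followed at -0.75. The elongation factor Tufm, the most abundant of those named, had 8323 and 5815 counts (-0.43).

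Mitochondrial tRNA synthetases and the genes that load glutamine tRNA had a median of -0.07 over 22 genes, with 0 higher by 2-fold and 4 lower. Lars2 (1250 and 259 counts, log2 ratio -2.18), Gatc (630 and 139 counts, -2.09) and Wars2 (228 and 54 counts, -1.98) were lower. Mars2, which has a single exon, had 220 WT counts and was listed at 0 in the knockout library. Nars2 was highest at 0.99. Genes of mitochondrial transcription and RNA processing had a median of 0.08 over 20 genes, with 1 higher and 0 lower. The higher one, Hsd17b10, a dehydrogenase that is also a subunit of mitochondrial ribonuclease P, had 16313 and 32137 counts (1.06). Elac2 (-0.64) and Pnpt1 (-0.50) were lowest. The ribosomal RNAs of the mitoribosome itself could not be followed, since mt-Rnr1 was listed at 0 in both libraries and mt-Rnr2 at 0 and 1. The messages it translates were mostly listed at 0 too. Of the 15 mitochondrially encoded genes looked up, ribosomal RNAs included, 11 were at 0 in WT and 13 in the knockout. mt-Nd2 had 142112 WT counts, mt-Co1 6989 and mt-Nd4 6329, each listed at 0 in the knockout, while mt-Cytb had counts in both (255139 and 376551). These values do not allow the messages to be compared.

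**Figure D4:**
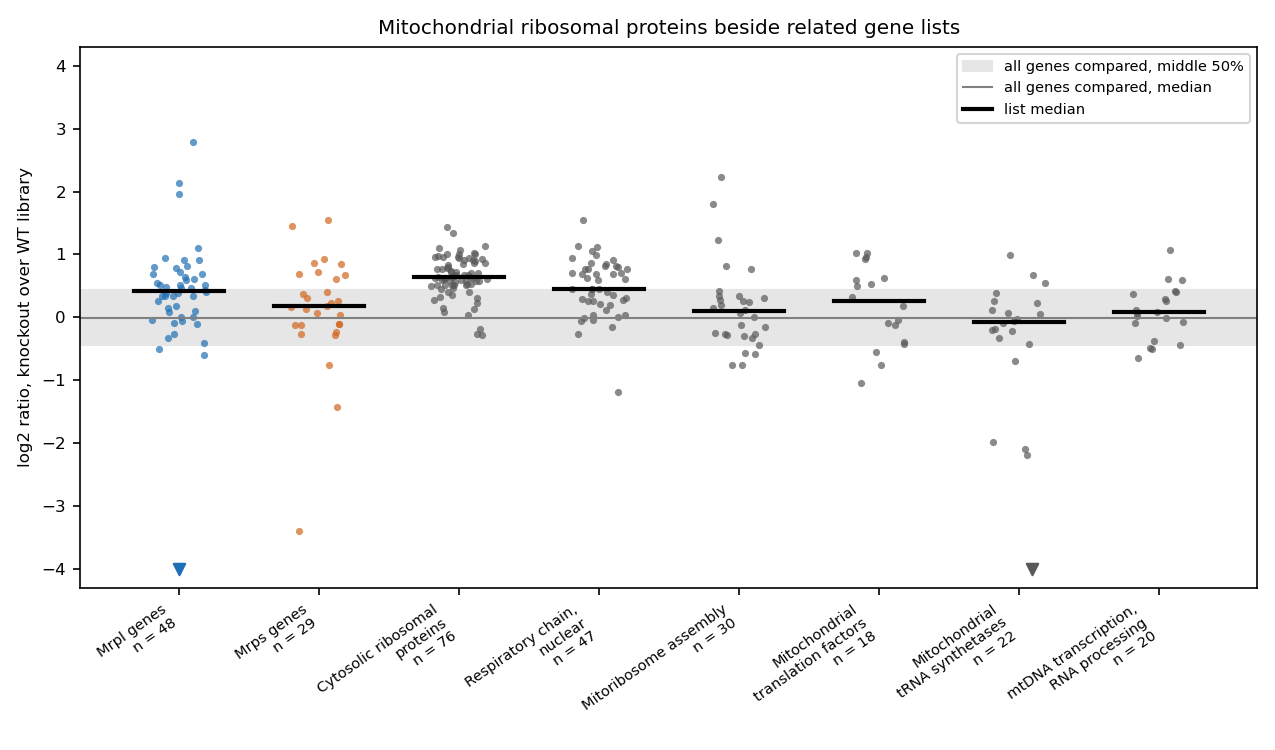
Each point is the log2 ratio of 1 gene, black bars are list medians, and the grey band holds the middle 50% of all genes compared. Triangles at the lower edge mark Mrpl41 and Mars2, which lie below -4. The medians of Mrpl genes (0.42) and nuclear respiratory chain genes (0.46) are close, and cytosolic ribosomal proteins are higher at 0.64. The Mrps genes (0.19) and the other mitochondrial lists lie nearer 0.

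The proteins of the cytosolic ribosome and the nuclear genes of the respiratory chain were set beside the members as other large complexes made of nuclear-encoded proteins. The 76 cytosolic ribosomal protein genes had a median of 0.64, with 73 above 0, 9 higher by 2-fold and 0 lower. Their ratios kept closer together, with an SD between genes of 0.33 and a middle 50% that spans 0.36, while the members had an SD of 1.13 and a span of 0.73. For all genes compared the SD was 1.47 and the span 0.88. The SD of Mrpl genes was 1.25, and 0.64 over the 45 with 3 or more exons and counts in both libraries, which leave out Mrpl41. The 47 respiratory chain genes compared had a median of 0.46, with 41 above 0, 4 higher by 2-fold and 1 lower, and an SD of 0.46. The differences between these sets were not tested.

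Markers of the cells in the tissue also differed between the libraries. All 10 hepatocyte markers had counts in both libraries, and their sum was 97839.5 CPM (WT) and 157038 CPM (knockout) (log2 ratio 0.68). Alb held 50542.5 and 89624.5 CPM of that sum. The median of the 10 was 0.42, with 1 higher by 2-fold and 0 lower, and Pck1 (-0.73) and Apob (-0.32) were below 0. The 12 neutrophil markers summed to 581 and 41.9 CPM (-3.80), with 6 of 9 compared lower by 2-fold. Lcn2, which hepatocytes also make in inflammation, held 517 and 17.6 CPM of that sum, and without it the sums were 64.5 and 24.3 CPM (-1.41). The 7 erythroid markers summed to 3087 and 784 CPM (-1.98), with 5 of 6 compared lower by 2-fold. The other compared marker, Alas2, was higher (0.55) and held 209 and 306 CPM of those sums. The 12 macrophage markers summed to 1964 and 1406 CPM (-0.48), with 1 higher and 1 lower. Sums of endothelial (-0.18), stellate cell (-0.12) and lymphocyte (-0.06) markers lay nearer 0. Their median log2 ratios were -0.45, -0.26 and -0.44, beside -0.40 for macrophage markers. The cholangiocyte markers summed to 26.9 and 16.5 CPM (-0.71), of which Spp1 held 19.6 and 9.65 CPM. The median of the 5 compared was -0.16. Krt7 (0.68) and Epcam (0.39) were above 0, and Spp1 (-1.02), Sox9 (-0.89) and Krt19 (-0.16) below. Of all these markers only Cftr was at 0 in a library, the WT one. The part of these differences in the ratios of the members was not tested.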

How the data were processed

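The authors deposited unnormalized counts for each Ensembl gene, which the file headers call counts. Per the labels' protocols, total liver RNA was extracted with Trizol and made into libraries with a SMARTER kit. The submitters' processing notes name the build GRCm38, also called mm10. Aligner, counter, annotation release and use of strand are not given in the sources used here. Names, positions, exon numbers (of the transcript with most exons) and median transcript length and GC content came from GENCODE M21, which holds 55240 of the 55421 genes.

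Totals were 65121596 counts (WT) and 63587567 (knockout), scaled with TMM factors of 1.02 and 0.982 from edgeR 4.0.16 in R 4.3.3. Log2 ratios of knockout over WT had 0.5 reads added. Genes averaging 50 or more counts were compared, at a limit of 2-fold. Exact conditional (Clopper-Pearson) 95% intervals cover counting error only, and reads without molecular identifiers are not independent molecules. No test was made with 1 library per genotype. The ratio step was tested on simulated data. A lowess curve (statsmodels 0.14.6, span 0.3) gave the GC trend.

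Named members were those past 2-fold, the 5 highest and lowest ratios and the 5 highest levels of each subunit, those at the count limit, the Mrps18 paralogs, Mrps30 and Mrps36. From the other lists, genes past 2-fold and the 2 at each end were eligible. Not all are printed, and Mrpl1, Mrpl37, Mrpl48, Mrps14, Mogs and Tufm were added after their values were seen. Members and lists were chosen with earlier results of these data known. Alternatives were DESeq2 1.42.0 size factors, total-count scaling, other filters, limits and added reads, GC correction, exon and overlap limits, the mean, and other member sets.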

Additional observations from a re-analysis of the deposited data

How the results depend on the processing

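The 6 members higher and 3 lower by 2-fold were the same genes with DESeq2 size factors, total-count scaling and 5 reads added. With a limit of 1.5-fold 25 were higher and 5 lower, and with 4-fold 2 were higher and 2 lower. The shares of all genes compared past these 2 limits were not computed, so these counts do not set the members apart. Of members without exon overlap 1 was higher. With counts of exon-sharing genes added, an alternative chosen after seeing the data, 5 were higher and 3 lower. With the GC trend removed Mrpl33 came within 2-fold (0.91) and Mrpl54 (1.21) and Mrps30 (-1.16) passed it. No member past 2-fold changed sign under the 4 settings run per gene. Of the other members, 6 changed sign with the GC trend removed (Mrpl4, Mrpl28, Mrpl45, Mrpl50, Mrps12 and Mrps15) and 2 with total-count scaling (Mrpl49 and Mrps17). The subunit medians kept their direction in every alternative run, from 0.31 (mean in place of median) to 0.48 for Mrpl genes and from 0.13 to 0.25 for Mrps genes. The log2 ratio of the summed counts was 0.31 with total-count scaling, 0.38 with at least 3 exons, 0.28 without overlap and 0.38 with the 5 further genes. No paired analysis was possible because each genotype has 1 library, and for the same reason no replicate could be left out. Depth limited few members, since all but Mrpl41 and Mrpl34 had more than 200 counts in each library.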
